A study of Mus musculus with 19 samples.

Results

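Of the 77133 merged regions of open chromatin in HSC and LMPP, 4322 (5.6%) held a peak in both adult lists and in neither fetal list. HSC are hematopoietic stem cells and LMPP are lymphoid-primed multipotent progenitors. To find these shared adult regions, the distinct peaks of 4 lists were merged wherever they had at least 1 bp in common, and a merged region was kept if it contained a peak of adult HSC and of adult LMPP and none of fetal HSC or fetal LMPP. Presence in the lists, and every signal value in them, is therefore the basis of the choice and is given below as a description without a test. RNA levels were not used to choose the regions.

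All cells came from C57BL/6 mice, the adult cells from bone marrow at 12 weeks of age and the fetal cells from the liver at E14.5, in midgestation. HSC were sorted as Kit+ Sca1+ CD48- CD150+ Flt3- cells and LMPP as Kit+ Sca1+ CD48+ CD150- Flt3+ cells, in both cases after leaving out dead cells (7AAD+) and cells with CD3, Gr1, B220 or Ter119. The adult gates also left out CD11b+ cells, and whether the fetal gates did is not given in the labels. ATAC-seq, in which a transposase inserts adapters into open chromatin, was run on 2 libraries in each of the 4 groups, and the protocol says that each biological sample was run in duplicate. The authors deposited 1 peak list per group, so accessibility has no spread between replicates here. For RNA-seq there were 11 libraries, 3 in each group except fetal HSC, which had 2. Their totals were 19799380 to 64783869 counts. The series text calls samples biological replicates without naming animals. The p-values here reflect how far single libraries spread within groups, taken over all 4 groups in 1 fit. That spread may be technical.

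Accessible regions far from gene starts are often enhancers, which transcription factors bind to raise the transcription of genes on the same chromosome, and regions at gene starts are promoters. Many enhancers of blood progenitors are bound by RUNX, ETS and GATA factors, and promoters that respond to interferon are bound by interferon regulatory factors (IRF) and STAT factors. Promoters of MHC genes, whose products display peptides to T cells, carry a CCAAT element bound by NF-Y beside elements bound by RFX and CREB family factors. The gene nearest to a region is named here by position, and whether the region acts on that gene was not measured.

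The sort was checked against RNA of its markers. Slamf1, which encodes CD150, stood at 69.0 to 74.0 counts per 1000000 (CPM) in adult HSC and 52.7 to 56.8 in fetal HSC, and at no more than 0.953 in any LMPP library. Cd48 was at 3.35 to 22.6 CPM in HSC and at 271 to 420 in LMPP, and Flt3 was at 9.4 to 29.8 in HSC and at 469 to 1060 in LMPP, as the gates select. Flt3 also differed by age. In HSC it was at 9.4 to 16.4 CPM in adult and 28.2 and 29.8 in fetal cells (1.12 ± 0.2, edgeR adjusted p = 0.00893). The difference was 1.16 without fetal HSC 1 and 1.08 without fetal HSC 2. In LMPP it was at 908 to 1060 in adult and 469 to 512 in fetal cells (-0.99 ± 0.18, 0.00529). Kit, by which all 4 groups were sorted, was at 195 CPM in adult HSC 3 against 1140 in both other adult HSC libraries, at 158 in adult LMPP 3 against 551 and 592, and at 280 in fetal LMPP 1 against 474 and 526. Ly6a, which encodes Sca1 and by which all 4 groups were also sorted, was at 59.7 to 133 CPM in adult and 30.0 and 31.0 in fetal HSC (-1.67 ± 0.36, edgeR adjusted p = 0.0239), and at 49.0 to 82.4 in adult and 15.4 to 24.8 in fetal LMPP (-1.79 ± 0.31, 0.00412). Its RNA was thus lower in fetal cells of both kinds, and the HSC call was lost without fetal HSC 1 (0.204), fetal HSC 2 (0.201) or adult HSC 2 (0.0646). Some counts below are repeated without the 3 libraries with low Kit, which are adult HSC 3, adult LMPP 3 and fetal LMPP 1.

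The following promoters lie in the shared adult regions, that of Myl10 for 238 bases of its window of 300, and belong to genes whose RNA was lower in both fetal populations, described further on. Each is the stretch of 250 bases before the RefSeq transcript start in GRCm38.p6, read in the direction of the gene, with matches of the named motifs in capitals. H2-Q7 (an MHC class I gene), on chr17:35438905-35439154 of the plus strand, Cysltr2 (a receptor for cysteinyl leukotrienes), on chr14:73049115-73049364 of the minus strand, and Myl10 (a myosin light chain), on chr5:136693426-136693675 of the plus strand, are shown as the highest-ranked such promoters among the genes with the largest falls. H2-DMb1 (a chain of the peptide-loading chaperone of MHC class II), on chr17:34152941-34153190 of the plus strand, Gm12250 (an interferon-inducible GTPase of the IRG family), on chr11:58183593-58183842 of the plus strand, and Gstt1 (a glutathione transferase), on chr10:75797732-75797981 of the minus strand, were chosen after their values were seen. Motifs were searched on both strands, so a match can appear as its reverse complement. Capitals mark the CCAAT box, spelled CCAAT, in H2-Q7, Cysltr2 and Gstt1, and the ETS motif, spelled AGGAAGT, in Myl10. In H2-DMb1 they mark the CCAAT box, the AP-1 motif, spelled TGANTCA with N for any base, and the RUNX motif, spelled TGTGGT. In Gm12250 they mark the IRF motif, which is GAAA repeated after any 2 bases, and the STAT motif, spelled TTCNNNGAA. Gstt1 also holds the IRF motif.
H2-Q7: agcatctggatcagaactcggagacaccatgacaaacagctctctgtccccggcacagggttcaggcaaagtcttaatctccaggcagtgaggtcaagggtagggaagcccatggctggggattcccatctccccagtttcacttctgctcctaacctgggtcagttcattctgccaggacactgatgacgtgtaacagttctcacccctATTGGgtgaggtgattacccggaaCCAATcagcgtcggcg
Cysltr2: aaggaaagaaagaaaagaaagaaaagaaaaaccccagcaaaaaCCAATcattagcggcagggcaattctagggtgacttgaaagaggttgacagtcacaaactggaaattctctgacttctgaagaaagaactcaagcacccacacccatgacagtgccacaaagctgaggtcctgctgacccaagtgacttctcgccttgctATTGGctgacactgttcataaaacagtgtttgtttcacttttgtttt
Myl10: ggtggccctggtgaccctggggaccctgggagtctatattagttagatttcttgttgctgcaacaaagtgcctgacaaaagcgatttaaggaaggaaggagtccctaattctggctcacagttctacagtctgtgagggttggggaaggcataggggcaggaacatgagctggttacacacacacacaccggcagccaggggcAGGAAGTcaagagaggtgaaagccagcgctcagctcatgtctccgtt
H2-DMb1: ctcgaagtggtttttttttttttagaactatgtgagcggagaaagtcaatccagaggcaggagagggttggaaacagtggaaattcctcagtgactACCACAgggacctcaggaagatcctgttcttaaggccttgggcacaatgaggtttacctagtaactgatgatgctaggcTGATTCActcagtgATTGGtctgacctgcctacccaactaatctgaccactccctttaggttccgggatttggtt
Gm12250: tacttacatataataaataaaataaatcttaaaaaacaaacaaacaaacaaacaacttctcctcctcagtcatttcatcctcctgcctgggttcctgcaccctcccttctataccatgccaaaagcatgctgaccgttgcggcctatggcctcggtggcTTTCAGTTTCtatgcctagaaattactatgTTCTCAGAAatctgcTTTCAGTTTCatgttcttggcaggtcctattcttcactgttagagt
Gstt1: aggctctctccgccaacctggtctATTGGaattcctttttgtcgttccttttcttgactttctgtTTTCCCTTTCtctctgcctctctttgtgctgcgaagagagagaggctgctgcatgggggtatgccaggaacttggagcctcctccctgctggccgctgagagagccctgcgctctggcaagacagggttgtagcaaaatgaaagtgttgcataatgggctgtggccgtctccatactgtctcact
Both CCAAT matches of H2-Q7 begin 40 and 16 bases before the transcript start. In H2-DMb1 the CCAAT match begins 61 bases before the start and the AP-1 match 75 bases before it. Gm12250 holds 2 IRF matches, beginning 91 and 46 bases before the start, with the STAT match between them.

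Across RefSeq, 251 promoter windows of 300 bases (250 before and 50 after the start) had at least 150 bases in a shared adult region, from 217 regions and 230 gene symbols. Their median ratio of observed to expected CpG was 0.453, against 0.762 for windows in any merged region and 0.798 for windows in regions of all 4 lists. It was 0.383 over all 32817 RefSeq promoter windows, 0.489 in regions of adult HSC alone and 0.331 in those of adult LMPP alone. The IRF motif was in 6.77% of the members' windows, in 3.43% of all 32817 RefSeq promoter windows, in 2.91% of windows in any merged region and in 1.53% of windows in regions of both fetal lists alone. AP-1 matches were in 11.2% of the members' windows, 7.81% of all windows and 4.67% of windows in any merged region. RUNX matches were in 21.5%, 16.8% and 12.5%, in the same order. For windows in regions of 1 adult list alone, some shares were near the members' and others were not. In those of adult HSC, IRF was in 4.06%, AP-1 in 10.4% and RUNX in 16.8% of 345, and in those of adult LMPP, IRF was in 5.41%, AP-1 in 5.95% and RUNX in 50 of 185. The GC box GGGCGG, a feature of CpG-rich promoters, was in 38.6% of the members' windows against 64.7% of windows in any merged region and 35.6% of all windows, and CCAAT was in 34.3%, 36.9% and 37.4%. ETS and STAT matches were in 9.96% and 6.77% of the members' windows and in 9.21% and 6.41% of windows in any merged region.

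Since CpG content differs between these classes, the shares were also taken over windows with a CpG ratio under 0.4. There, IRF matches were in 11 of 110 windows of the members, in 6.08% of 2090 windows in any merged region and in 4.21% of 16875 windows overall. AP-1 matches were in 22 of the 110, in 10.4% of the 2090 and in 1848 of the 16875, and RUNX matches in 29.1%, 23.6% and 21.9%, in the same order. The other motifs searched on both strands were AGATAA for GATA factors, GAGGAAGT for ETS factors of the PU.1 kind, which contains the letters of the ETS motif, and TTGCNNAAT for C/EBP. Further ones were the NF-kappaB motif, the CTCF motif and its core AGGGGGC, an E-box spelled CAGCTG, another E-box spelled CACGTG, the nuclear receptor motif AGGTCA and the MEIS motif TGACAG. At any CpG ratio, these 10 were in 0.797% to 23.1% of the members' windows. In any merged region they were in 0.407% to 16.9% of windows. CAGCTG was in 23.1% of the members' windows, 15.3% of windows in any merged region and 16.3% of all windows. With a CpG ratio under 0.4 its shares were 23.6%, 22.8% and 18.2%. AGGTCA was in 15.1%, 11.2% and 16.3% at any CpG ratio. The PU.1 kind, CTCF, its core and CACGTG had lower shares in the members' windows than in any merged region. A match is a string of letters and not a measured binding event, and sequences of regions away from RefSeq starts were not searched.

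By position, the shared adult regions were mostly distal. Of the 4322, 322 (7.45%) lay within 1 kb of a gene start, 836 (19.3%) at 1 to 10 kb, 2460 (56.9%) at 10 to 100 kb and 704 (16.3%) farther away, with a median distance of 27.5 kb. Of all merged regions, 18.9% lay within 1 kb of a start, and of the 23657 regions of all 4 lists 43.2% did. The regions of both fetal lists alone had a share of 8.86% at starts and 32.8% beyond 100 kb. By signal, 701 members (16.2%) were above the median of both adult lists.

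**Figure D1:**
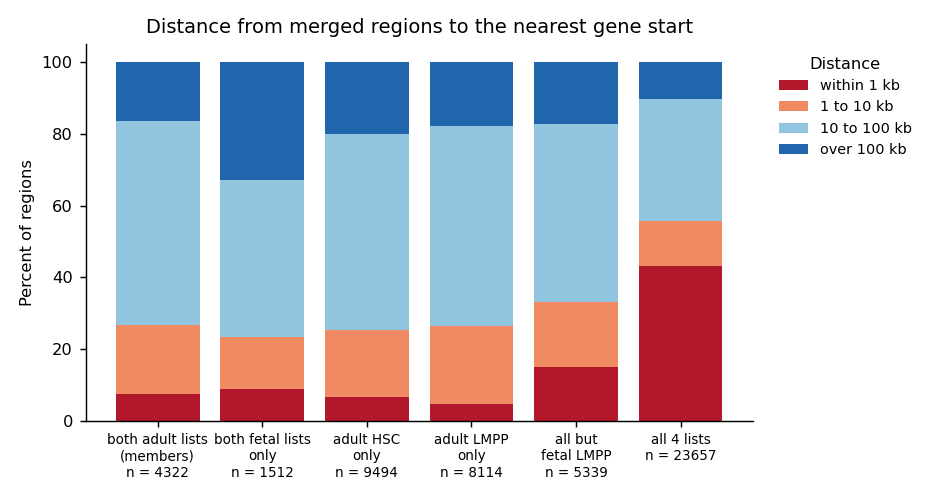
Stacked bars give the percent of merged regions (y axis) in 4 classes of distance to the nearest gene start, for 6 classes of regions by the peak lists that contain them (x axis, with the number of regions). Within 1 kb of a start lie 7.45% of the shared adult regions and 43.2% of the regions of all 4 lists.

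Members were 584 bases long at the median. Their median signal, the value by which the authors' peak caller ranks a peak, was 8.05 in the adult HSC list against 9.8 over that whole list, and 6.51 against 8.11 in the adult LMPP list. The Spearman correlation of the 2 signals over members was 0.439, a description over regions of the same libraries. The lists differ in length, since the fetal LMPP list held 37156 distinct peaks and the others 48286 to 53068. With the 37156 strongest peaks of each list, 2275 regions met the rule. That cut also took the weakest peaks from both adult lists, so it does not show the effect of the short fetal LMPP list alone. Of the 35241 regions with peaks of both adult lists, 12.3% lacked a fetal peak, and of the 28818 with peaks of both fetal lists 5.25% lacked an adult peak. The nearest fetal peak was 8.51 kb away at the median, and 221 members (5.11%) had one within 500 bp.

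**Figure D2:**
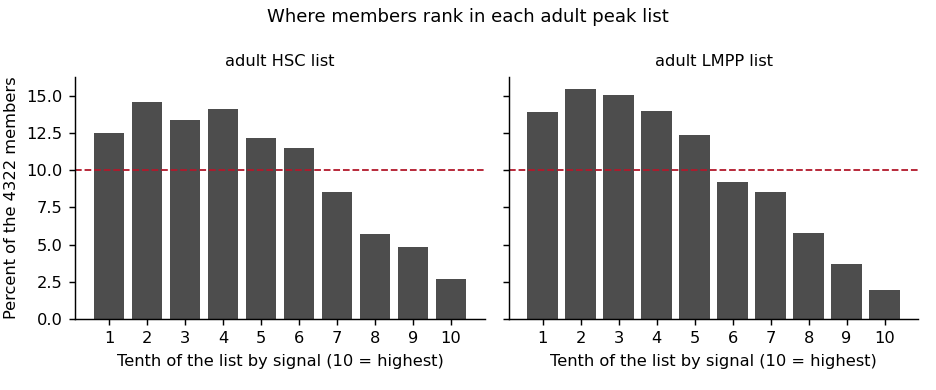
Bars give the percent of the 4322 members (y axis) whose strongest peak falls in each of 10 equal classes of the adult HSC list (left) or the adult LMPP list (right), ranked by signal (x axis, 10 is the strongest class). The dashed line marks 10%, the share of a list in each class. The strongest classes hold 2.66% and 1.94% of the members.

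Just inside the rule were regions with a fetal peak 10 to 35 bases away, near G630055G22Rik, Rbbp6, Usp38, Fzd5, Abcb5 and 4930479D17Rik. Just outside were regions whose fetal and adult peaks had 146 to 165 bases in common, near Iqgap2, Mir101c (4 regions) and Plk3. The members with the highest ranks in both adult lists lay near Atp10a, Pcsk1, Kcnq5, Stxbp4, Marcks, Slco6d1, Samsn1, Fam81b, Eln and Btbd3, at 10.1 to 176 kb from the start. The first of them, on chr7:58749767-58750527 within the span of Atp10a, a phospholipid-transporting ATPase, had signals of 30.6 in adult HSC and 29.2 in adult LMPP, at percentiles 99.7 and 99.9. Its nearest fetal peak was 5.34 kb away.

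The densest stretches of 1 Mb were on chromosome 15 at 73 to 74 Mb, with 13 members among 73 merged regions near Ago2, Dennd3, Ptp4a3 and other genes, and on chromosome 11 at 24 to 25 Mb, with 11 of 51 near Bcl11a and a neighbouring transcript. Bcl11a encodes a zinc finger factor needed for lymphoid development and for silencing of fetal globin. Its RNA was at 67.1, 74.8 and 44.8 CPM in adult HSC and 73.9 and 92.2 in fetal HSC, and no difference was called there (edgeR adjusted p = 0.399) or in LMPP (0.0964). Another stretch, on chromosome 16 at 10 to 11 Mb, held 11 of 66, among them regions of Socs1, a feedback inhibitor of cytokine signalling to which 4 members and 11 merged regions in all were assigned. Socs1, like Bcl11a named after its values were seen, had RNA that was not called different in HSC (log2 difference -0.79 ± 0.29, adjusted p = 0.169) or in LMPP (-0.21 ± 0.25, 0.639).

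The question for RNA was whether genes near regions open in the adult alone have different levels in the fetus. Genes were tested with edgeR's quasi-likelihood test over all 14720 genes that passed a filter on low counts, with a call meaning a Benjamini-Hochberg adjusted p below 0.05. Within 1 kb of a start the shared adult regions had 320 genes, of which 225 (70.3%) passed the filter. RNA of 25 of the 225 (11.1%) was lower in fetal HSC, against 2.89% of all genes tested, and RNA of 7 (3.11%) was higher, against 2.07%. In fetal LMPP, 55 (24.4%) were lower, against 8.29%, and 10 (4.44%) were higher, against 7.08%. The median log2 difference of the 225 was -0.28 in HSC and -0.57 in LMPP, beside 0.0 in both over all genes tested. These 20 genes were lower in both populations (8.89%, against 1.86% of all genes): H2-Q7, H2-DMb1, H2-Eb1, H2-Ob, H2-K2, Cd74, Tapbpl, Ifi44, Isg20, Gm12216, Gm12250, Gm4841, Gm4951, Il27ra, Cysltr2, Gstt1, Myl10, Dnajc6, Pqlc3 and 2210408F21Rik. Adgra2, Gapdh and Slc16a3 were higher in both (1.33%, against 0.978%).

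**Figure D3:**
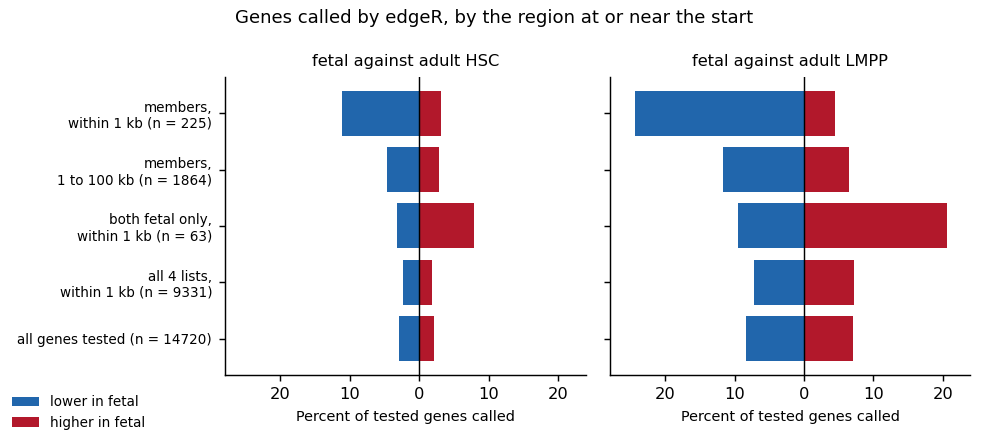
Bars give the percent of tested genes called lower (blue, to the left) or higher (red, to the right) in fetal HSC (left panel) or fetal LMPP (right panel), for genes grouped by the region at or near the start, with the number tested. Genes with a shared adult region within 1 kb were called lower in 11.1% and 24.4% of cases, and all genes tested in 2.89% and 8.29%.

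Genes with other classes of region at the start gave different shares, set here side by side without a test. With a region of adult HSC alone (405 tested genes), 8.4% were lower and 3.21% higher in fetal HSC, and 14.6% and 7.9% in fetal LMPP. With a region of adult LMPP alone (251 genes), the shares were 5.98% and 4.38% in HSC and 12.4% and 5.58% in LMPP. Where the region was missing from the fetal LMPP list alone (611 genes), 7.36% were lower and 1.64% higher in fetal HSC, and 17.2% and 5.73% in fetal LMPP. All 3 of these classes were lower more often than all genes tested in both populations. For the 63 genes with a region of both fetal lists alone, 3.17% were lower and 7.94% higher in fetal HSC, and 9.52% and 20.6% in fetal LMPP. For the 9331 with a region of all 4 lists 2.3% were lower and 173 genes higher in HSC, and 7.16% and 7.19% were lower and higher in LMPP. Without the 3 libraries with low Kit, 53 of the genes with a shared adult region at the start were lower in fetal HSC and 66 in fetal LMPP, where 8.59% and 15.3% of all genes were. The count in HSC rests on 2 fetal libraries and was 7 without fetal HSC 1 and 6 without fetal HSC 2, where 0.857% and 0.714% of all genes were lower.

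Beyond 1 kb and up to 100 kb, the shared adult regions had 1864 tested genes with no such region at the start. Of these, 87 (4.67%, against 2.89% of all genes tested) were lower and 53 (2.84%, against 2.07%) higher in fetal HSC. In fetal LMPP, 217 (11.6%, against 8.29%) were lower and 121 (6.49%, against 7.08%) higher. The medians were -0.04 and -0.09. The 63 tested genes with 3 or more such regions within 100 kb were lower in 6.35% of cases in fetal HSC and 20.6% in fetal LMPP. For genes whose strongest member ranked above the members' median, 14.3% were lower in fetal LMPP, and 11.8% for the rest. Genes within 100 kb of a region of adult HSC alone were lower in 4.58% of cases in fetal HSC and 9.98% in fetal LMPP. For regions of adult LMPP alone the shares were 4.3% and 11.2%. Among all 2089 tested genes within 100 kb of a shared adult region, 112 (5.36%) were lower and 60 (2.87%) higher in fetal HSC. In fetal LMPP, 272 (13.0%) were lower and 131 (6.27%) higher. Without fetal HSC 1 the HSC counts were 33 and 31, and without fetal HSC 2 they were 25 and 21. Of all genes, 0.857% were then lower and 0.889% higher without fetal HSC 1, and 0.714% and 0.681% without fetal HSC 2. The higher counts were also 37 in HSC without adult HSC 1, and 75, 80 and 85 in LMPP without adult LMPP 1, fetal LMPP 2 and fetal LMPP 3. Of all genes, 1.41% were then higher in HSC, and 3.82%, 4.19% and 4.69% in LMPP, in the same order. In bulk samples, fewer cells of a type and less RNA per cell cannot be told apart.

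The genes at starts are described by role, beginning with MHC genes. H2-Q7, an MHC class I gene, stood at 439, 438 and 409 CPM in adult HSC, 11.2 and 11.6 in fetal HSC, 296, 318 and 357 in adult LMPP and 5.26, 4.25 and 4.46 in fetal LMPP. All adult libraries were far above all fetal ones. RNA fell by 5.23 ± 0.18 (SE) on the log2 scale in fetal HSC (edgeR adjusted p = 1.23e-07) and by 6.11 ± 0.16 in fetal LMPP (6.13e-09). The region at its start, on chr17:35438606-35439705, ranked at percentile 89.6 of the adult HSC list and 74.1 of the adult LMPP list, with the nearest fetal peak 13.6 kb away. H2-Q7 and H2-K2 have near-identical relatives, so their single values are uncertain.

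Cd74 encodes the invariant chain that guides MHC class II molecules to the compartment where they load peptides. It stood at 113, 198 and 289 CPM in adult HSC, 1.97 and 2.0 in fetal HSC, 115, 96.7 and 243 in adult LMPP and 8.06, 4.36 and 18.8 in fetal LMPP, with no overlap between ages. Its RNA fell by 6.65 ± 0.81 in fetal HSC (edgeR adjusted p = 0.00102) and by 3.87 ± 0.58 in fetal LMPP (0.00192). The highest adult values of Cd74 were in adult HSC 3 and adult LMPP 3, which have low Kit. So were those of H2-Eb1, H2-Aa, H2-Ab1, H2-DMb1, H2-Ob, H2-K2, Isg20, Gstt1, Pqlc3, Myl10, Gm12216, Gm12250, Gm4951 and 2210408F21Rik. Of the 20 genes at starts lower in both populations, H2-Q7, Tapbpl, Ifi44, Il27ra, Cysltr2, Dnajc6 and Gm4841 did not have this pattern. Without the 3 libraries with low Kit, Cd74 differed by -6.3 in HSC (edgeR adjusted p = 0.000362) and -3.22 in LMPP (0.00265), H2-Eb1 by -6.93 and -5.7, Gm4951 by -2.87 and -6.82, and Myl10 by -6.46 and -4.0, all still called. H2-Eb1, a beta chain of MHC class II, was at 17.8 to 36.3 CPM in adult HSC and 20.7 to 39.1 in adult LMPP, and at 0.0355 to 0.807 in the fetal libraries. Its region lay 0.7 kb from the start, and the start itself had a region of both adult lists and fetal HSC.

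H2-DMb1 and H2-Ob belong to the 2 chaperones that promote and restrain peptide loading of class II. H2-DMb1 stood at 66.4, 78.4 and 121 CPM in adult HSC, 7 and 11 in fetal HSC, 60.3, 62.3 and 86.3 in adult LMPP and 8.7, 7.69 and 6.88 in fetal LMPP. The difference was -3.29 ± 0.35 in HSC (edgeR adjusted p = 0.000457) and -3.16 ± 0.29 in LMPP (0.000109), and the ages did not overlap. H2-Ob, which was 137 to 204 CPM in adult LMPP and 10.3 to 16.2 in adult HSC, was 8.35 to 15.9 in fetal LMPP and 2.91 and 3.66 in fetal HSC. Tapbpl, a peptide editor of MHC class I, had the smallest fall of the 20, -0.89 ± 0.18 in HSC (0.0156) and -0.67 ± 0.15 in LMPP (0.0154).

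Among the 26 tested genes of an antigen presentation list, 5 had a shared adult region, each within 1 kb of the start, and all 5 were lower in both fetal populations. The list as a whole was lower in 22 of 26 cases in fetal HSC and 24 of 26 in fetal LMPP, so a fall was not limited to genes with such a region. Of the 8 genes whose start had a region of all 4 lists and none of the shared adult kind, 8 were lower in fetal HSC and 7 in fetal LMPP. They include, chosen after their values were seen, H2-Aa, at 44.9 to 110 CPM in adult HSC and 0.118 and 0.317 in fetal HSC, and H2-Ab1, at 71.8 to 177 and 1.07 to 1.18, the chains of another class II molecule. The median of the 5 was -5.23 in HSC and -3.87 in LMPP, and that of the 8 was -2.15 and -2.87. On chromosome 17 at 34 to 35 Mb, where the class II genes lie, 5 of 67 merged regions (7.46%) were members, near the 5.6% of all regions.

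Of the other genes at starts, several are known to be induced by interferon, although Ifi44 alone among those called in both populations is on the interferon list used here. Gm12250 stood at 23.5, 27.7 and 34.4 CPM in adult HSC, 6.92 and 5.12 in fetal HSC, 19.2, 25.1 and 29.4 in adult LMPP and 3.55, 4.06 and 1.74 in fetal LMPP, with no overlap. The difference was -2.25 ± 0.39 in HSC (edgeR adjusted p = 0.00753) and -2.97 ± 0.34 in LMPP (0.000472). Ifi44, an interferon-induced protein, was at 50.8 to 92.6 and 12.8 to 15.3 CPM in adult and fetal HSC, and at 38.4 to 46.7 and 0.552 to 3.03 in adult and fetal LMPP. Isg20, an exonuclease that acts against RNA viruses, differed by -1.98 ± 0.35 in HSC (0.00823) and by -1.3 ± 0.29 in LMPP (0.0149). The predicted gene Gm12216 fell by 2.59 in HSC and by 2.51 in LMPP. Gm4841 was at 3.07 to 5.21 CPM in adult HSC and 0 in both fetal HSC libraries, at least 42.9-fold lower, and at 0.588 to 2.02 in adult LMPP and 0 to 0.0425 in fetal LMPP. Gm4951 was at 19.6 to 60.7 CPM in adult HSC, 3.83 and 3.85 in fetal HSC, 6.62 to 14.6 in adult LMPP and 0 to 0.127 in fetal LMPP. Genes of the IRG and GBP families resemble each other, so reads may be split among them.

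Of the 51 genes of an interferon response list, 17 had a shared adult region within 100 kb, and 6 of these were lower in fetal HSC and 11 in fetal LMPP. By edgeR, by DESeq2 and at an unadjusted p under 0.05, 0 of the 17 were higher in either. Over all 51, 13 were lower in fetal HSC and 28 in fetal LMPP. Medians were -1.52 and -1.74 for the 17 and -0.6 and -1.1 for the 51. At starts, the list had 3 genes with a shared adult region, of which 1 was lower in fetal HSC (Ifi44) and 2 in fetal LMPP (Ifi44 and Iigp1), while Oas3 was called in neither (edgeR adjusted p = 0.157 and 0.237). Of 29 with a region of all 4 lists, 5 were lower in fetal HSC and 13 in fetal LMPP. Of 12 with another region, 6 and 10 were lower, and of 7 with no region, 1 and 3. Sp100, a nuclear body protein with a region 1.8 kb from its start, was at 127 to 164 CPM in adult HSC, 47.3 and 49.6 in fetal HSC, 151 to 168 in adult LMPP and 26.2 to 37.4 in fetal LMPP. Ifi47, a GTPase, differed by -1.46 ± 0.21 in HSC (edgeR adjusted p = 0.00274) and by -1.54 ± 0.18 in LMPP (0.000546), and the HSC call was lost without fetal HSC 2 (0.0578).

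Genes whose promoter window in a shared adult region held the IRF motif numbered 13 among those tested. RNA of 3 was lower in fetal HSC and of 5 in fetal LMPP, with medians of -1.46 and -2.11. For the 129 tested genes with a window lacking it the counts were 11 and 31, with medians of -0.19 and -0.64. In fetal LMPP 10 of 25 genes with the RUNX motif were lower against 27 of 117 without, and 5 of 12 with AP-1 against 31 of 129. For C/EBP the counts were 3 of 5 against 33 of 136, and for STAT 4 of 11 against 32 of 131. Several other motifs went the opposite way. With ETS, 3 of 18 were lower against 33 of 123 without, and with MEIS 5 of 24 against 31 of 118. With the PU.1 kind, 0 of 4 were lower against 36 of 137. A match was thus not in general accompanied by lower fetal RNA, and these differences were not tested. Ifit3b, chosen after its values were seen, has an IRF match. It was at 3.5 to 4.16 CPM in adult LMPP and 0.296 to 1.51 in fetal LMPP (edgeR adjusted p = 0.0267). Its call was lost without any 1 of 5 LMPP libraries, with adjusted p of 0.0519 to 0.0793, and it is nearly identical to Ifit3.

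**Figure D4:**
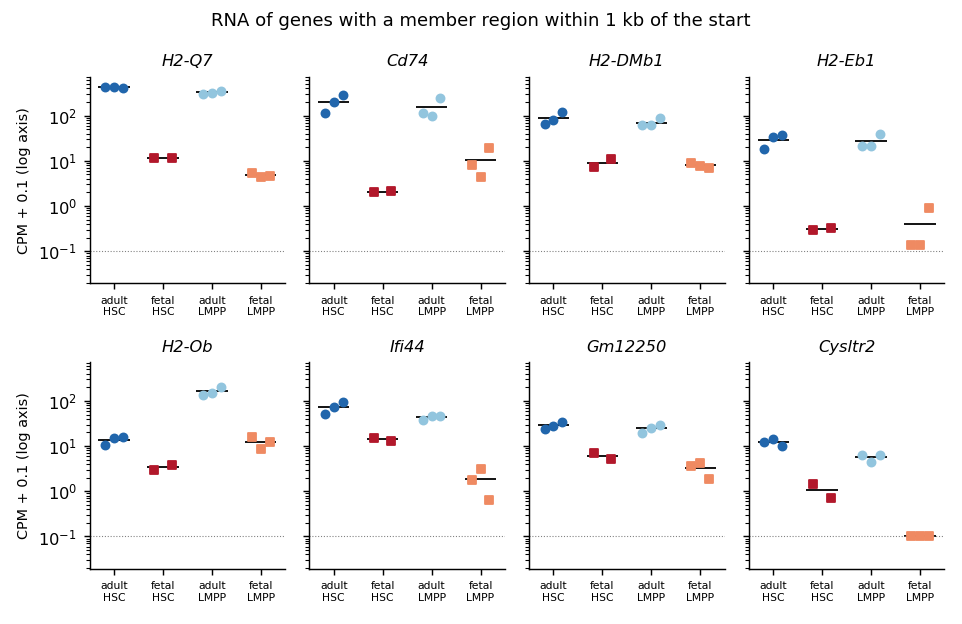
Points give CPM plus 0.1 on a log axis (y axis) in each RNA library of the 4 groups (x axis), for 8 genes with a shared adult region within 1 kb of the start, and bars give the group mean. Circles are adult and squares fetal libraries, and the dotted line marks 0 CPM. In all 8 genes each adult library is above each fetal library of the same cell type.

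The remaining genes at starts have other roles. Cysltr2 stood at 12.0, 14.1 and 10.1 CPM in adult HSC, 1.34 and 0.61 in fetal HSC and 6.37, 4.43 and 6.19 in adult LMPP, and at 0 in all 3 fetal LMPP libraries. The floor of 3 counts per library makes it at least 58.3-fold lower in fetal LMPP, and the difference in HSC was -3.64 ± 0.49 (edgeR adjusted p = 0.00381). Its region, on chr14:73048997-73049593, ranked at percentile 89.2 in the adult HSC list and 40.1 in the adult LMPP list. Gstt1 was mostly an HSC transcript, at 21.7 to 28.8 CPM in adult HSC, 1.29 to 1.57 in fetal HSC, 1.11 to 2.23 in adult LMPP and 0 to 0.48 in fetal LMPP. Il27ra, a subunit of the receptor for interleukin 27, differed by -1.58 ± 0.24 in HSC (0.0034) and by -1.6 ± 0.21 in LMPP (0.000892).

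Myl10 was at 20.5, 38.1 and 137 CPM in adult HSC against 0.354 and 0.317 in fetal HSC, a wide spread among adult libraries but no overlap with fetal ones. Dnajc6, which encodes auxilin, a cofactor for removing clathrin coats, was at 2.29 to 8.84 CPM in adult HSC and at 0 in both fetal HSC libraries, at least 67.9-fold lower. Pqlc3 and 2210408F21Rik differed by -2.8 ± 0.46 and -2.66 ± 0.63 in HSC and by -2.16 ± 0.38 and -2.28 ± 0.53 in LMPP. In the opposite direction, Slc16a3, a lactate exporter, rose from 2.26 to 5.21 CPM in adult HSC to 13.4 and 13.8 in fetal HSC, and from 3.21 to 6.75 in adult LMPP to 15.0 to 23.4 in fetal LMPP. Adgra2, an adhesion receptor of the Wnt pathway, differed by 2.97 ± 0.55 in HSC (edgeR adjusted p = 0.0113) and 3.33 ± 0.55 in LMPP (0.00311), and Gapdh, a glycolytic enzyme with many pseudogene copies, by 0.53 ± 0.12 (0.0295) and 0.93 ± 0.11 (0.000494). The regions of Pqlc3, Adgra2 and Gapdh lay 644, 610 and 648 bases from the start, with a fetal peak 219, 354 and 294 bases away. That of Gapdh ranked at percentile 3.69 of the adult HSC list and 0.613 of the adult LMPP list.

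Of the 20 genes lower in both, the HSC calls of H2-Q7, H2-DMb1, H2-K2, Cd74 and Cysltr2 were kept when any 1 of the 11 libraries was left out. The other 15 lost theirs without fetal HSC 2 (edgeR adjusted p of 0.0518 to 0.248), and 14 of them, all but Gm4841, also without fetal HSC 1 (0.0504 to 0.321). In LMPP, the calls of Dnajc6, Gstt1, Isg20, Tapbpl and 2210408F21Rik were lost without 1 of the LMPP libraries (0.0515 to 0.0691). Of the 3 genes higher in both, none kept its HSC call without fetal HSC 2 (Adgra2 0.136, Slc16a3 0.215, Gapdh 0.307).

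Among genes with more distant regions, the largest falls shared by both populations were those of Sdsl, Esr1 and Gbp6. Sdsl, a serine dehydratase-like enzyme with a region 6.24 kb from its start, was at 136 ± 46.4 CPM (SD, n = 3) in adult HSC, 0.983 and 1.51 in fetal HSC, 13.3 to 17 in adult LMPP and 0 in all 3 fetal LMPP libraries. It was at least 152-fold lower in fetal LMPP, and the HSC difference was -6.75 ± 0.43 (edgeR adjusted p = 0.00012). Esr1, the estrogen receptor alpha, with a region 20.1 kb away within its gene, was at 10.8 to 21.7 CPM in adult HSC, 0.366 and 0.551 in fetal HSC, 28.2 to 43.4 in adult LMPP and 0 to 0.595 in fetal LMPP. Pgr, the progesterone receptor, had 4 regions within 100 kb and was at 2.06 to 7.44 CPM in adult HSC and 2.22 to 9.1 in adult LMPP, against 0 to 0.236 in the 2 fetal HSC libraries and 0 in all 3 fetal LMPP libraries. Its fall was called in LMPP (at least 49.1-fold) and not in HSC (0.0636). The HSC calls of Esr1 and Gbp6 were lost without fetal HSC 1 (0.072 and 0.31) or fetal HSC 2 (0.114 and 0.272).

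A region near the gene did not always go with lower fetal RNA. Dlk1, an imprinted gene of the Notch ligand family, has a region 5.98 kb from its start and stood at 3.58 to 3.89 CPM in adult HSC, 64.7 and 95.3 in fetal HSC, 0.152 to 1.01 in adult LMPP and 56.7 to 68.6 in fetal LMPP. It rose by 4.41 ± 0.43 in HSC (edgeR adjusted p = 0.000263) and 6.59 ± 0.47 in LMPP (2.49e-05). Postn, a matrix protein with 2 regions, at 1.29 and 18.7 kb, was at 0 in all 3 adult HSC libraries, 19.3 and 27.7 CPM in fetal HSC, 4.71 to 7.6 in adult LMPP and 18.1 to 24.3 in fetal LMPP, at least 291-fold higher in fetal HSC. Cnn3, an actin-binding calponin, rose from 5.93 to 11.4 CPM in adult HSC to 189 and 197 in fetal HSC. Pik3r6 (a regulatory subunit of PI3K gamma), Grap (an adaptor), Jam3 (a junctional adhesion molecule) and P2rx7 (an ATP-gated channel) were also higher in both, by 1.51 to 5.78 in HSC and 1.76 to 4.01 in LMPP. The edgeR call of P2rx7 in HSC was lost without fetal HSC 2 (0.0952), and that of Jam3 without fetal HSC 1 (0.101), fetal HSC 2 (0.121) or adult HSC 1 (0.0528). In LMPP the call of P2rx7 was lost without any 1 of 5 libraries (0.0538 to 0.0809), and that of Cnn3 without adult LMPP 1 (0.0517).

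**Figure D5:**
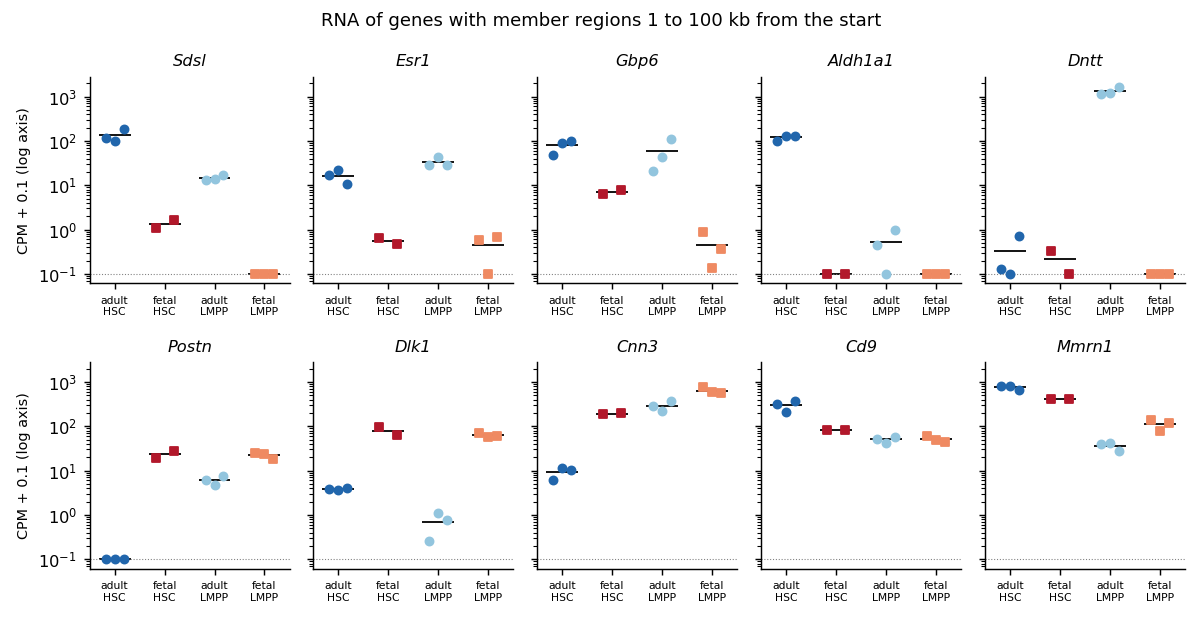
Points give CPM plus 0.1 on a log axis (y axis) in each RNA library of the 4 groups (x axis), for 10 genes with shared adult regions 1 to 100 kb from the start, and bars give the group mean. Circles are adult and squares fetal libraries, and the dotted line marks 0 CPM. Sdsl, Esr1 and Gbp6 are lower in fetal libraries of both cell types, Postn, Dlk1 and Cnn3 are higher, and Aldh1a1 and Dntt differ in HSC or LMPP respectively.

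The genes with the most shared adult regions within 100 kb were Galnt2, Lypd6b and Maf, with 5 each, and 11 genes had 4. Galnt2, a glycosyltransferase, was at 40.2 to 113 CPM in adult HSC and 91.2 to 99.5 in fetal HSC, with overlap, and Maf, a leucine zipper factor, was at no more than 0.532 CPM in any library. Lypd6b, a Ly6 family protein, was at 1.24 to 2.44 CPM in adult HSC and at 0.197 and 0 in fetal HSC, which was not called (-4.5 ± 1.1, edgeR adjusted p = 0.0567). In LMPP it was at 5.0 to 7.79 CPM in adult and at 0 in all 3 fetal libraries, at least 65.0-fold lower (0.00153). Mecom, a zinc finger factor of stem cell maintenance with 4 regions, was at 50.7 to 170 CPM in adult HSC and 218 and 256 in fetal HSC, which was not called (1.0 ± 0.49, 0.318). Ets2, with 4 regions, was not called either, at 0.81 ± 0.3 in HSC (0.173) and 0.74 ± 0.28 in LMPP (0.0969).

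Lists of stem cell and lineage genes showed both directions. Of 36 stem cell regulators, 12 had a shared adult region, and in fetal HSC 0 of these were called by edgeR or by DESeq2, with 1 lower at an unadjusted p under 0.05. In fetal LMPP 1 of the 12 was lower (Myb, -0.55 ± 0.15, edgeR adjusted p = 0.0335, and 0.0578 to 0.112 without any 1 of 7 libraries) and 2 were higher. The 2 were Mycn, from 48.6 to 60.2 CPM in adult LMPP to 193 to 358 in fetal LMPP, and Cdkn1c, an inhibitor of the cell cycle, from 4.39 to 5.31 to 18.8 to 43.5. Over all 36 regulators, 2 were lower and 1 higher in fetal HSC, and 5 and 6 in fetal LMPP. Of 34 lymphoid genes 31 were tested and 12 had a region, of which 2 were higher in fetal HSC (Ikzf2 and Cnn3), and 2 lower (Dntt and Tcf4) and 1 higher (Cnn3) in fetal LMPP. Over all 31, 0 were lower and 7 higher in fetal HSC, and 7 and 5 in fetal LMPP. Dntt, which adds nucleotides to rearranging antigen receptor genes, was at 1170, 1180 and 1690 CPM in adult LMPP and 0 in all fetal LMPP libraries, at least 13900-fold lower, with a region 6.32 kb from its start.

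For megakaryocyte and platelet genes, 11 of 33 tested had a region, with 1 lower in fetal HSC and 1 higher in fetal LMPP, against 3 and 7 over all 33. Cd9, a tetraspanin of platelets, had 2 regions, 14.9 and 16.0 kb away, and was at 324, 215 and 377 CPM in adult HSC, 84.0 and 84.3 in fetal HSC, 42.4 to 56.5 in adult LMPP and 43.9 to 59.3 in fetal LMPP. Mmrn1, a platelet protein that binds coagulation factors, was at 675 to 826 CPM in adult HSC, 404 and 420 in fetal HSC, 27.3 to 41.1 in adult LMPP and 79.7 to 139 in fetal LMPP, a rise in LMPP (1.65 ± 0.22, edgeR adjusted p = 0.000977) and no call in HSC (0.0661). Of the 6 retinoic acid genes with a region among 13 tested, 1 was lower and 1 higher in fetal HSC, and 1 and 1 in fetal LMPP. Over all 13, 1 was lower and 2 higher in fetal HSC, and 1 and 1 in fetal LMPP. Aldh1a1, which makes retinoic acid, was at 97.3, 132 and 131 CPM in adult HSC and 0 in both fetal HSC libraries, at least 1250-fold lower (edgeR adjusted p = 0.00322). Dhrs3, which reduces retinal, fell by 2.32 ± 0.2 in LMPP (7.56e-05).

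In the other lists, the numbers with a region were small and are read beside the whole list. Of 10 NF-kappaB and inflammation genes with a region among 29 tested, 1 was lower in fetal HSC (Nfkbia, -1.56 ± 0.2, edgeR adjusted p = 0.00131) and 4 in fetal LMPP (Nfkb1, Nfkbia, Il1r1 and Traf1), against 4 and 9 over all 29. Of 9 AP-1 and immediate early genes with a region among 27, 1 was higher in fetal HSC by edgeR (Klf2, 3.14 ± 0.61, adjusted p = 0.0148, and 0.147 without fetal HSC 2). In LMPP 0 of the 9 were called by edgeR, by DESeq2 or at an unadjusted p under 0.05. Among all 27, 1 was lower and 1 higher by edgeR in fetal HSC, and 1 and 1 in fetal LMPP. Of 9 adhesion and homing genes with a region among 26, 1 was lower and 2 higher in fetal HSC, and 3 were lower and 2 higher in fetal LMPP. Among all 26, 1 was lower and 3 higher in fetal HSC, and 5 and 4 in fetal LMPP. Alcam, an adhesion molecule with 2 regions, was at 25 to 32.7 CPM in adult LMPP and 0.551 to 1.7 in fetal LMPP. Of 6 myeloid genes with a region among 29, 1 was higher in fetal HSC by edgeR (Ncf1, adjusted p = 0.0105, and 0.145 without fetal HSC 2), and 1 was lower (Csf2ra) and 1 higher (Cebpb) in fetal LMPP. The whole list of 29 had 1 lower and 6 higher in fetal HSC, and 5 and 3 in fetal LMPP. Of 3 fetal regulators with a region among 15, 1 was higher in fetal HSC and 2 in fetal LMPP, Dlk1 in both. Over all 15, 11 were higher in fetal HSC and 13 in fetal LMPP.

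Whether the fetal against adult difference itself differed between LMPP and HSC was tested as an interaction. It was called for 38 of the 2089 genes within 100 kb, of which 27 (1.29%, against 0.543% of all genes) had a lower and 11 (0.527%, against 0.387%) a higher value in LMPP than in HSC. Prkcb (protein kinase C beta), chosen with the next 3 after their values were seen, fell from 15.8 to 17.1 CPM in adult HSC to 3.83 and 4.37 in fetal HSC, and rose from 4.23 to 6.72 in adult LMPP to 12.5 to 18.2 in fetal LMPP. Sult1a1, a sulfotransferase, was at 50.7 to 109 CPM in adult HSC and 0.236 and 0.439 in fetal HSC, and at no more than 0.808 in any LMPP library. Rgs1, an inhibitor of G protein signalling with 3 regions, fell by 5.92 ± 0.44 in HSC (edgeR adjusted p = 6.2e-05) and by 2.2 ± 0.31 in LMPP (0.00122). Ptgs1, cyclooxygenase 1, was at 157 to 199 CPM in HSC of both ages and rose from 9.7 to 20.5 in adult LMPP to 80.1 to 111 in fetal LMPP. The number called was 8 without fetal HSC 1, 5 without fetal HSC 2, 16 without adult LMPP 1, 21 without adult HSC 1, 24 without fetal LMPP 3 and 170 without the 3 libraries with low Kit.

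Markers of other cells were summed in each library, since macrophages and B cells have high MHC class II. The 11 macrophage genes summed to 14.7 to 44.5 CPM in adult HSC and 25 to 31.0 in fetal HSC, and to 63.2 to 75.3 in adult LMPP and 78.0 to 173 in fetal LMPP. The 9 B cell genes summed to 37.4 to 82.0 and 50.6 to 67.4 in adult and fetal HSC, and to 64.7 to 91.7 and 75.6 to 105 in adult and fetal LMPP, mostly from Cd79b. Neither sum was higher in adult than in fetal cells without overlap. The 10 T and NK cell genes summed to 65.7 to 132 and 20.8 to 24.7 in adult and fetal HSC and to 266 to 372 and 50.4 to 62.7 in adult and fetal LMPP, and were higher in adult cells without overlap. Of the 6 tested, Cd247 (-2.39 ± 0.58 in LMPP, edgeR adjusted p = 0.0197, and 0.051 to 0.0714 without any 1 of 3 LMPP libraries) had a shared adult region. The 11 erythroblast genes summed to 57.6 to 186 CPM in adult HSC and 1240 to 1390 in fetal HSC, and to 29.7 to 61.9 and 172 to 534 in adult and fetal LMPP. Mast cell, basophil and eosinophil genes summed to 19.8 to 75.6 CPM in adult and 4.29 to 9.65 in fetal LMPP, and hepatocyte genes to 220 to 284 and 68.1 to 162. Neutrophil genes summed to 0.455 to 1.57 CPM in adult and 6.95 to 30.6 in fetal LMPP. Endothelial and stromal genes summed to 73.9 to 109 CPM in adult and 136 to 175 in fetal HSC. These 4 sums also did not overlap between the ages named. The hepatocyte sum did not show the direction of most of its 10 genes. Their median difference in LMPP was 5.89, with 2 called higher and 1 lower in fetal LMPP. In adult LMPP 5 of them were at 0 in all libraries, and in fetal LMPP 0 were. The part of these cells in the results was not tested.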

How the data were processed

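RNA-seq and ATAC-seq of sorted HSC and LMPP were used as deposited. The authors deposited expected counts per gene for 11 RNA libraries (22.5% of the values not whole, rounded here) and 4 peak lists, 1 per ATAC-seq group. Each deposited list gives a score, a signal value and a −log10 q for each peak. The submitters' processing notes name MACS2, Bowtie2 2.3.5, SAMtools 1.9, Picard, STAR, RSEM, HOMER, Trim Galore and DESeq2, and the builds mm10, NCBIM37 and GRCm38.p5, without their roles. The sources used here do not say how the 2 ATAC-seq libraries of a group were combined. As a check of the build, 51.1% of GRCm38 gene starts lay inside adult HSC peaks, and 1.53% did after a shift of 1000000 bp.

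Duplicate peak lines were reduced to distinct positions before merging. Each region was assigned to the nearest gene start within 100 kb. Counts were tested with edgeR 4.0.16 in R 4.3.3 (filterByExpr, TMM, quasi-likelihood F test, 4 groups in 1 fit), with 14720 of 25124 genes tested and called below a Benjamini-Hochberg adjusted p of 0.05. The fit was tested on simulated data with 200 changed genes. Differences are log2 fetal minus adult ± SE. The floor of 3 counts per library was 0.0498 to 0.152 CPM and covers counting error only. Intervals of shares are Wilson intervals at 95%. DESeq2 1.42.0, another scaling, other filters and distances, the replicate block and each library left out were alternatives. Promoter windows and motifs used RefSeq GRCm38.p6 sequences, and sequences elsewhere were not used here.

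The rule for names took the 10 regions with the highest mean percentile of signal, the 8 genes with the most regions, the 8 largest falls and 8 largest rises called in both populations (libraries without overlap, at least 5 CPM, no Gm or Rik names), up to 3 genes of each list by lowest p, and 6 regions on each side of the rule's boundary. Outside it, the complete set of genes at starts called in the same direction in both populations, gate markers, other genes of the lists and the genes said to be so in the text were named after their values were seen. The regions and gene lists were chosen with earlier results of these data known. The SMART-seq libraries do not mark strand, so overlapping and antisense genes cannot be told apart. A gene that the rule names is not reported here.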

Additional observations from a re-analysis of the deposited data

Results flagged for a closer look

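An interaction term in edgeR was called for 13 named genes with a shared adult region within 100 kb. For these, the fetal against adult difference itself differed between LMPP and HSC. The values are the log2 difference in LMPP minus that in HSC, so a positive value means a higher difference in LMPP. They were 1.87 for Cd9, 2.44 for Jam3, 2.55 for Mmrn1, 1.93 for Mycn, 3.59 for Prkcb, 2.99 for Ptgs1, 3.72 for Rgs1 and 7.13 for Sult1a1. They were -3.25 for Cnn3, -6.98 for Cysltr2, -1.75 for Dhrs3, -3.11 for Ikzf2 and -10.83 for Postn. The values of Cysltr2 and Postn involve a group with all libraries at 0 and depend on the prior count.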

How the results depend on the processing

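The number of shared adult regions was 2275 with lists of equal length. Their share within 1 kb of a start was 5.63% with equal lists and 6.49% with no fetal peak within 500 bp, and 5.95% and 10.1% lay within 500 bp and 2 kb of a start. Genes lower in fetal HSC (112) numbered 212 with DESeq2, 299 without the 3 libraries with low Kit, 25 within 1 kb and 67 with equal lists. Those higher in fetal HSC (60) numbered 97, 161, 7 and 29 in that order, and 37 within 20 kb. Those lower in fetal LMPP (272) numbered 458 without the 3 libraries, 177 within 20 kb, 55 within 1 kb and 144 with equal lists, and those higher (131) numbered 249, 77, 10 and 78, and 199 with DESeq2. Over all genes tested, 2.89% were lower and 2.07% higher in fetal HSC. With DESeq2 these were 6.06% and 4.41%, and without the 3 libraries 8.59% and 7.59%. In fetal LMPP they were 8.29% and 7.08%, 12.3% and 10.8% with DESeq2, and 15.3% and 15.2% without the 3 libraries. The interaction (38) gave 146 with DESeq2, 23 with the replicate block, 170 without the 3 libraries, 25 within 20 kb, 3 within 1 kb and 19 with equal lists. At starts, genes lower in fetal HSC (25) numbered 41 with DESeq2 and 53 without the 3 libraries, and those higher (7) 4 with the 2 groups alone, 4 with the replicate block, 13 without the 3 libraries, 0 with equal lists and 2 with no fetal peak within 500 bp. Genes at starts lower in fetal LMPP (55) numbered 28 with equal lists, and those higher (10) 17 with DESeq2 and 6 with equal lists or with no fetal peak within 500 bp. The median in HSC (-0.06) was -0.03 with DESeq2, -0.11 without the 3 libraries, -0.08 within 20 kb, -0.28 within 1 kb and -0.08 with equal lists, and that in LMPP (-0.12) was -0.57 within 1 kb. Leaving out each library gave 25 to 130 and 21 to 63 genes lower and higher in fetal HSC, 192 to 335 and 75 to 185 in fetal LMPP, and 5 to 48 for the interaction. The medians over these genes within 100 kb were then -0.1 to -0.01 in HSC and -0.16 to -0.04 in LMPP. At starts the counts were 6 to 32, 1 to 7, 41 to 58 and 6 to 12 in the same order. The cause of these changes was not tested. Same-numbered libraries did not deviate together in LMPP (correlations of -0.138, 0.0808 and -0.167, own number closest for 0 of 3) and little in HSC (0.0602 and 0.0974, 2 of 2), so the numbers do not pair them. With the replicate block 90 and 42 genes were lower and higher in fetal HSC and 249 and 125 in fetal LMPP. Among single genes, the uncalled LMPP difference of Cd9 (0.01) was -0.04 with the 2 groups alone and -0.03 without the 3 libraries, and leaving out single libraries gave -0.13 to 0.11 for it and -0.44 to 0.14 for the uncalled LMPP difference of Ikzf2 (-0.07). Planned motif counts in short windows around peak centres and summits were not run, because no genome of the build was used here, and RefSeq promoter windows, chosen after seeing the data, took their place.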
